A study of Mus musculus with 135 samples.

Results

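The metallothionein genes Mt1 and Mt2 and the stress response gene Nupr1 were followed in single haematopoietic stem cells (HSCs) from a young and an old mouse. All 3 genes were found by symbol among the 15181 genes of the deposited count table. They were selected on the difference in mean level between these same young and old cells, so their levels are a description of that choice and no test of it. The series holds 61 cells of a young mouse (2 to 3 months) and 74 cells of an old mouse (20 to 25 months), both C57BL/6 and both carrying a Vwf-eGFP reporter, a bacterial artificial chromosome transgene in which green fluorescent protein marks cells with an active von Willebrand factor promoter. Live (7AAD-), lineage-negative, Sca-1+, c-Kit+ (LSK), CD150+CD48- bone marrow cells were sorted and captured on a Fluidigm C1 chip, and full-length polyA cDNA was sequenced. Of these, 52 young and 62 old cells passed the study's quality limits and are described here.

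Each age was 1 mouse and 1 capture run, so age, animal and run cannot be told apart, and neither can the sex of the animals. Xist was expressed (above the level limit given below) in 50 of the 52 young and 8 of the 62 old cells. Any of 4 Y-linked genes was expressed in 2 young and 58 old cells. The cells used held between 273236 and 5688706 counted reads in the young mouse (median 2798989) and between 276316 and 4086659 in the old (median 2116023), so the old cells were on the whole the shallower ones. Markers of the labelled cell type were present to different degrees: Kit was expressed in 49 young and 61 old cells, Hlf in 49 and 55 and Gata2 in 45 and 62. Ly6a, which encodes the sort marker Sca-1, was expressed in 28 and 43, Procr in 11 and 24 and Slamf1, which encodes the sort marker CD150, in only 9 and 15. Of the genes meant to be low, Cd34 was expressed in 28 young and 23 old cells, whereas Cd48 was expressed in 1 young and 0 old cells and Flt3 in 5 and 2.

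Metallothioneins are small cysteine-rich proteins that hold zinc and copper ions. Their genes are switched on by metals through the zinc-sensing factor MTF-1, and also by glucocorticoids and oxidative stress, and Mt1 and Mt2 lie side by side in a cluster of metallothionein genes. Nupr1 (nuclear protein 1, also called p8) encodes a small, disordered chromatin-associated protein that many forms of cell stress induce, among them amino acid shortage and endoplasmic reticulum stress through the factor ATF4.

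In RefSeq on GRCm38, the gene record of Mt1 spans chr8:94178883-94180327 and Mt2 chr8:94172618-94173567, both on the plus strand and 5315 bases apart, and Nupr1 spans chr7:126623246-126625470 on the minus strand. The RefSeq start from which the upstream window of Mt1 is measured is base 94179089, inside the gene record. Each main transcript in GENCODE M21 has 3 exons. Upstream sequence is shown because the metallothionein pair shares a metal response element core that Nupr1 lacks in the same window. The 250 bases before the RefSeq start are given for Mt2 (chr8:94172368-94172617, plus strand), and 30 bases around a match for Mt1 (chr8:94179055-94179084, plus strand, before that start but within the record) and Nupr1 (chr7:126625562-126625591, minus strand), from RefSeq on GRCm38.p6 and 5′ to 3′ along each gene. Capitals mark the core of the metal response element (TGCACNC or TGCGCNC, either strand) in the metallothionein genes, and in Nupr1 the composite element of C/EBP and ATF factors (TGATGNAA), which lies there on the opposite strand.
Mt1: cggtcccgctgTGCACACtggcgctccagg
Mt2: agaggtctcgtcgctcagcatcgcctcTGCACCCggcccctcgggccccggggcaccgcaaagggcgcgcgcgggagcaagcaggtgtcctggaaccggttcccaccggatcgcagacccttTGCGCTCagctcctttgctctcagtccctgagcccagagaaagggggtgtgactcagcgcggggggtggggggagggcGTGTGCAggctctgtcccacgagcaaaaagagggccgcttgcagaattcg
Nupr1: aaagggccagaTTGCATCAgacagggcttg

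Over the whole window (250 bases before the RefSeq start and 50 after it), the metal response element core occurred 3 times at Mt1, 4 times at Mt2 and 0 times at Nupr1. Only 1 of those at Mt1 and 3 of those at Mt2 lay before the RefSeq start, and the others reached past it. Of 32851 promoter windows of the same length, 25.7% held at least 1 such core, 1.97% at least 3 and 0.517% at least 4. The composite element of C/EBP and ATF factors occurred once at Nupr1, as in 3.97% of windows, and in neither metallothionein window. Of the other motifs searched on both strands, the antioxidant response element core (TGACNNNGC, in 12.4% of windows) occurred once at Mt2, the E-box (CACGTG, in 7.15%) once at Nupr1, and the GC box (GGGCGG, in 35.7%) 3 times at Mt1 and 2 times at Nupr1. No window held TATAAA. The annotations place the starts differently: the main GENCODE transcripts start 7 bases (Mt1) and 206 bases (Nupr1) upstream of the RefSeq starts used here, so that the match shown for Nupr1 lies in its first GENCODE exon, and that of Mt2 starts 46 bases downstream. A match describes letters only, and binding was not measured.

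All 3 genes were at least 1 log2 unit higher in the old cells, as were 3.91% of the 15014 genes with a read, a count that the choice of the genes had fixed. Levels are means over cells of log2(CPM + 1), where CPM is the count scaled to 1000000 counted reads of the cell, and the median difference over all genes was -0.02. The difference was 5.26 for Nupr1, the second largest of all genes (rank 2), 4.93 for Mt1 (rank 6) and 1.64 for Mt2 (rank 158). The plot of levels by cell shows that the 3 genes reached these differences in different ways.

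**Figure D1:**
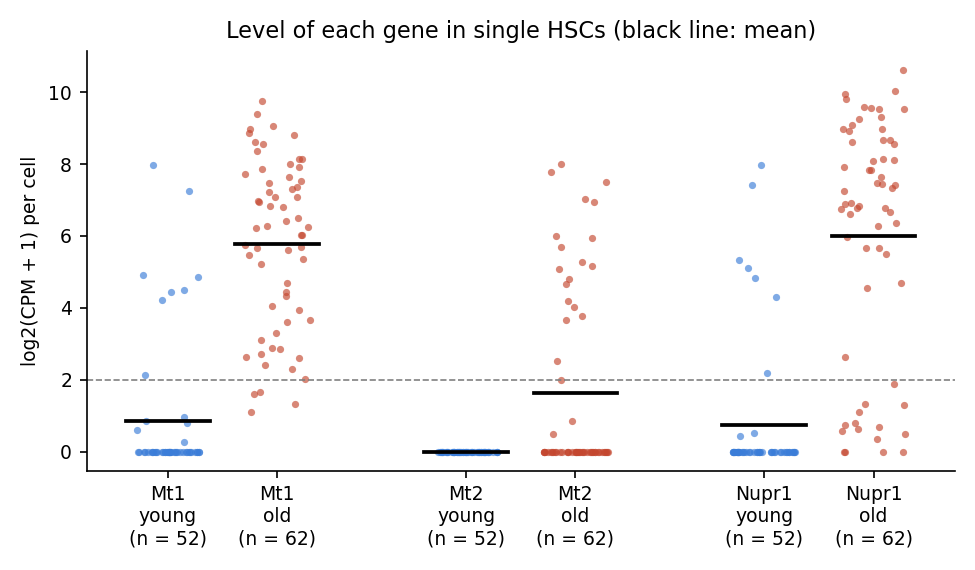
Level of Mt1, Mt2 and Nupr1 in each of the 52 young and 62 old cells, as log2(CPM + 1). Each point is a cell, the black lines are the means over cells, and the dashed line marks the level of 2 above which a cell was counted as expressing. Old cells spread over a wide range of Mt1, have mostly no Mt2, and fall into a low and a high group for Nupr1, while most young cells sit at 0.

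Mt1 was read in every old cell. In young cells it ranged from 0 to 7.97 on the log2(CPM + 1) scale with a median of 0 and a mean of 0.84 (SD 1.94, n = 52 cells). In old cells it ranged from 1.09 to 9.75 with a median of 6.23 and a mean of 5.78 (SD 2.36, n = 62 cells). The ages overlapped at their ends, with 12 old cells above the highest young cell and 8 young cells above the lowest old cell.

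The share of cells expressing Mt1, taken as a log2(CPM + 1) above 2 (about 3 CPM), was 15.4% in the young mouse (8 of 52 cells, 95% exact Clopper-Pearson interval 6.88 to 28.1) and 93.5% in the old (58 of 62, 84.3 to 98.2). Counting any cell with a read, Mt1 was present in 13 of 52 young cells (25.0%) and in 62 of 62 old cells (100%, 94.2 to 100), the fewest reads in an old cell being 3. For Mt1 and Nupr1 the interval of the old share lay above that of the young share, as it did for 0.899% of all genes, and for Mt2 likewise. Intervals cover counting error over cells of a single mouse, not variation between mice. Being read in every old cell was shared by 938 of the 15014 genes (6.25%). Mt1 was the 1 gene of 15014 (0.00666%) that was read in every old cell and in no more than 13 young cells, a criterion set on Mt1's own values.

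The 12 old cells that failed the quality limits also had a read of Mt1 in each of them, which makes it read in 74 of 74 deposited old cells. This included the shallowest old cell, B9, in which 28 of only 4610 counted reads fell on Mt1. At log2 12.57 its level lay far above the highest old cell used (9.75), so a read in such a failed cell is weak evidence. Of the 9 young cells left out, 3 had a read of Mt1.

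Few young cells held most of the young Mt1 reads. Cell D6 had 1007 reads of Mt1 (log2 7.97) and cell H4 had 666 (log2 7.26), against 2025 reads over all 52 young cells (95% exact Poisson interval 1938 to 2115). D6 alone accounted for 49.7% of these reads, and the interval, which treats reads as independent counts, does not cover such spread between cells. The old cells held 14610 reads (14374 to 14849), of which the highest cell, E5, had 1608 (11%). On these sums Mt1 was 8.35-fold higher in the old cells, at 116 against 13.9 CPM, and 14.8-fold higher without D6 and E5. The sums give a smaller ratio than the means of log2 values, and a few high young cells weigh more in a sum than in a mean of logs.

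Among cells that expressed Mt1, the level itself differed less between the ages than the share of cells did. The mean log2(CPM + 1) was 5.04 (SD 1.83) over the 8 young cells and 6.08 (SD 2.13) over the 58 old cells. The difference of 1.04 was smaller than either SD, which describes the spread between cells and not the error of a mean. Old cells were spread across the range of Mt1, with 4 cells at or below 2, 13 between 2 and 4, 11 between 4 and 6, 22 between 6 and 8 and 12 above 8.

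Mt2 was absent from the young cells and present in a minority of the old ones. It had 0 reads in all 52 young cells, which allows a share of up to 5.77% by a floor of 3 cells and 6.85% by the exact interval, and 0 in all 61 deposited young cells. In old cells it ranged from 0 to 8.0 with a median of 0 and a mean of 1.64 (SD 2.61, n = 62 cells). Old cells expressing it numbered 18 of 62 (29%, 18.2 to 41.9), and 21 (33.9%, 22.3 to 47) had at least 1 read.

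Where Mt2 was expressed, its level ran from near the limit of 2 upwards, and that limit fixes the lower end. Its level in the 18 expressing old cells ranged from 2.53 to 8.0 with a mean of 5.45 (SD 1.55), and the highest count was 566 reads in cell F9, 23.2% of the 2438 reads (2342 to 2537) that all old cells held. A floor of 3 counts was set for the young group, and both sums were divided by the reads of their group. On this floor the ratio of old to young was 940.2. The floor treats reads as independent counts, whereas the 21 old cells with a read held a median of 46 reads. A single young cell with as many reads would exceed the floor, so 940.2 is no lower bound. The ratio compares sums over cells and says nothing of the old cells without Mt2, which were the larger part.

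Nupr1 had the largest difference of the 3. In young cells it ranged from 0 to 7.98 with a median of 0 and a mean of 0.73 (SD 1.94, n = 52 cells), and in old cells from 0 to 10.62 with a median of 6.90 and a mean of 5.99 (SD 3.37, n = 62 cells). It was expressed in 7 of 52 young cells (13.5%, 5.59 to 25.8) and in 47 of 62 old cells (75.8%, 63.3 to 85.8). The ages overlapped, with 21 old cells above the highest young cell.

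Unlike Mt1, Nupr1 split the old cells into a low and a high group. There were 15 old cells at or below a log2(CPM + 1) of 2, 1 between 2 and 4, 6 between 4 and 6, 19 between 6 and 8 and 21 above 8. The low cells mostly had a few reads: 58 of 62 old cells (93.5%) had at least 1 read, but 11 of these had between 1 and 10 reads whereas 47 had more than 10. Cells B3, C5, C8, F4 and H11, for example, had 1 read each. Such counts lie near the floor, and whether they stand for expression in the cell was not tested. Among the young cells, 9 of 52 (17.3%) had a read.

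Nupr1 also had the larger difference within expressing cells, at 5.31 (SD 1.94) in the 7 young and 7.69 (SD 1.65) in the 47 old cells, a gap of 2.38. The young cells held 1535 reads of Nupr1 in all (1459 to 1614) and the old cells 33523 (33165 to 33884), or 10.6 against 267 CPM, a ratio of 25.3. Of the young reads 51% came from cell F5, with 783, and of the old reads 11.7% from cell B7, with 3937. Without these cells the ratio was 45. The cells left out of the description were alike in direction, with Nupr1 expressed in 9 of 12 old and 1 of 9 young cells.

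**Figure D2:**
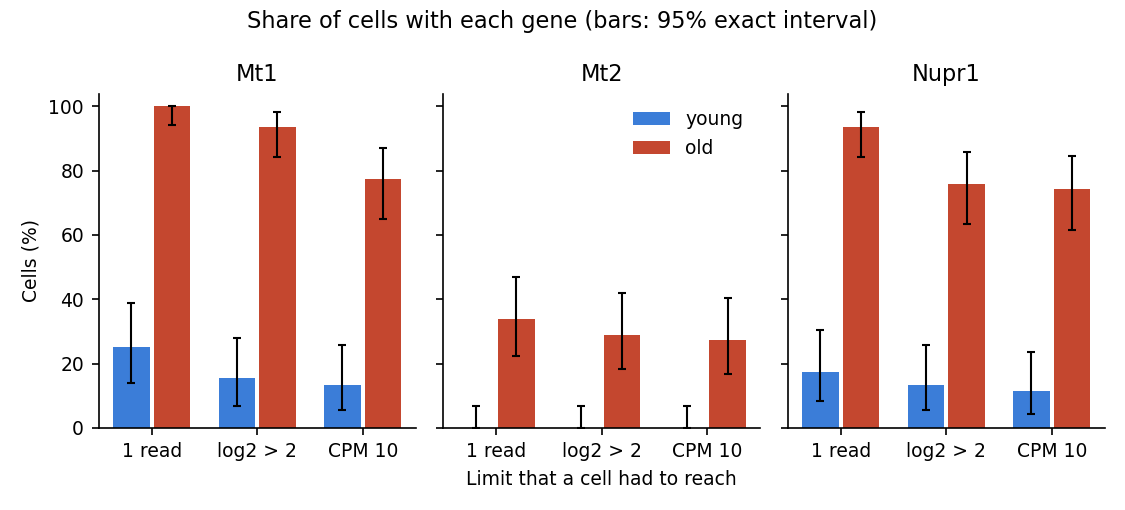
Share of the 52 young and 62 old cells in percent that reached each of 3 limits (at least 1 counted read, log2(CPM + 1) above 2, CPM of at least 10), with 95% exact intervals. For Mt1 the share of old cells falls from 100% with any read to 77.4% at 10 CPM, whereas for Mt2 and Nupr1 the last 2 limits give close shares, and no young cell has Mt2 at any limit.

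The choice of limit mattered most for Mt1, whose old cells went from 62 with a read to 48 at a CPM of at least 10. Genes of a similar level in old cells are given for scale. Since the 3 genes were selected on their difference between the ages, a low number of young cells with a read is fixed by that selection. Of the 454 other genes whose mean log2 level in old cells was within 0.5 of that of Mt1, the median gene was read in 60 old and 50 young cells, 161 (35.5%) were read in every old cell, and 1 (0.220%) was read in 13 young cells or fewer. Of the 380 genes near the level of Nupr1, 297 (78.2%) were read in as many old cells and 0 in as few young cells. Of the 2782 genes near the level of Mt2, the median gene was read in 26 old and 23 young cells and 3 in as few young cells. These sets were chosen after the values were seen.

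To compare the genes with each other, levels were divided by the length of the main GENCODE transcript (549 bases for Mt1, 511 for Mt2 and 829 for Nupr1). In old cells the mean was 315 CPM per kb for Nupr1, 261 for Mt1 and 41.1 for Mt2. In young cells it was 18.4 for Mt1, 12.7 for Nupr1 and 0 for Mt2. Mt2 was lowest at both ages. No order of Mt1 and Nupr1 is read from the young values, which rest on a few cells: without cell D6 the value for Mt1 was 9.86, and without cell A5 that for Nupr1 was 6.95. The 51-base reads could tell the metallothioneins apart, since the longest run that the Mt1 and Mt2 transcripts shared was 20 bases. No stretch of 51 bases of Mt1 or Nupr1 occurred in a transcript of another gene, whereas 207 of 461 such stretches of Mt2 were shared with Gm45774, a gene annotated on the opposite strand over Mt2. The sources used here do not say that the counting used strand, so reads of Mt2 and Gm45774 cannot be told apart.

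Cell by cell, the old cells mostly expressed more than 1 of the 3 genes and no young cell did. The genes were selected on their difference between the ages, so this contrast is largely fixed by that choice. Among young cells 37 (71.2%) expressed none, 15 (28.8%) expressed 1 and 0 expressed 2 or 3. Among old cells 1 (1.61%) expressed none, 12 (19.4%) expressed 1, 36 (58.1%) expressed 2 and 13 (21%) all 3. In the young mouse, the 13 cells with a read of Mt1 and the 9 with a read of Nupr1 had no cell in common. With so few young cells for either gene, this was not compared with the overlap that the shares alone would give.

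**Figure D3:**
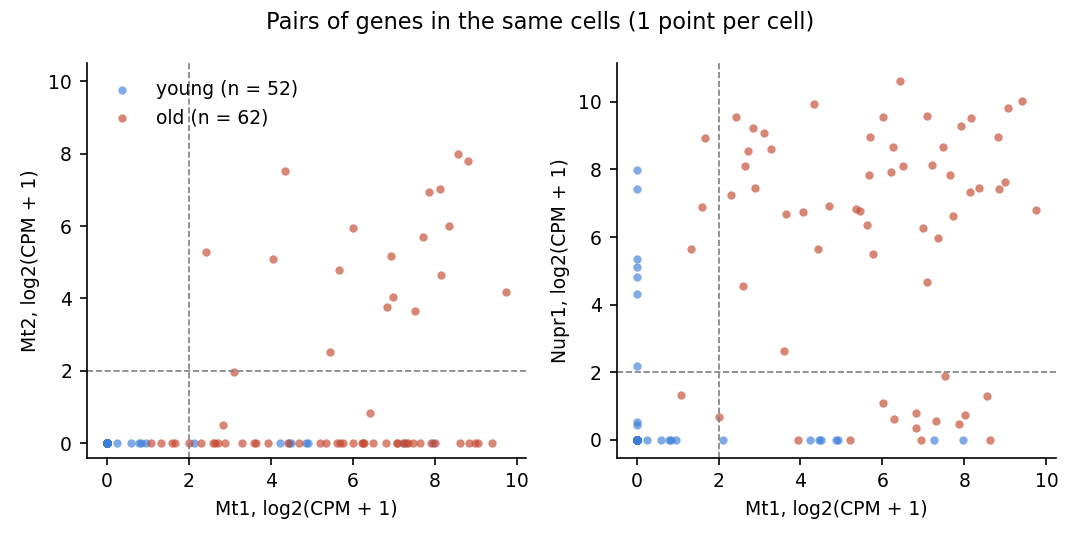
Mt2 against Mt1 (left) and Nupr1 against Mt1 (right) in the same cells, each as log2(CPM + 1), with a point for each of the 52 young and 62 old cells and dashed lines at the level of 2 used to call a cell expressing. All 18 old cells above the line for Mt2 are also above it for Mt1, whereas cells high and low in Nupr1 occur along the whole range of Mt1.

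Within the old mouse, all 18 cells that expressed Mt2 also expressed Mt1 (100%, 81.5 to 100), as did 40 of the 44 cells without Mt2 (90.9%, 78.3 to 97.5), so that these shares overlap. The mean Mt1 level was 6.87 (SD 1.89) in the cells with Mt2 and 5.33 (SD 2.41) in those without. These ranges overlapped widely, from 2.42 to 9.75 and from 1.09 to 9.40. In the 21 cells with a read of both, Mt1 had more reads than Mt2 in 18, and the ratio of Mt1 to Mt2 reads ran from 0.106 over a median of 3.48 to 106. Summed over all old cells it was 5.99.

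Nupr1 did not follow the metallothioneins from cell to cell. It was expressed in 44 of 58 old cells with Mt1 (75.9%) and 3 of 4 without, and in 13 of 18 with Mt2 (72.2%, 46.5 to 90.3) and 34 of 44 without (77.3%, 62.2 to 88.5). Over the 62 old cells, which share a mouse and a capture run, Spearman's rho of log2(CPM + 1) was 0.25 between Mt1 and Mt2, 0.04 between Mt1 and Nupr1 and 0.12 between Mt2 and Nupr1. These are descriptions of sparse counts, and none is a strong relation. Depth moved little with the genes, with rho against the total counted reads of a cell of -0.21 for Mt1, -0.08 for Mt2 and -0.03 for Nupr1.

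The genes most like each member across old cells were sought among the 6719 genes expressed in at least 20% of old cells. For Mt1 they were Slc16a1 (rho 0.44), a lactate and pyruvate transporter, Pwp1 (0.43), Ahcy (0.42), Azin1 (0.41) and Lrrc49 (0.41), and the most opposed were Mettl7a2 (-0.48), Itga11 (-0.42) and Arhgdib (-0.42). For Mt2 they were Phtf2 (0.46), Rassf3 (0.44), Pdgfd (0.43), Ndufb5 (0.42) and Rwdd4a (0.42), with Polr2c (-0.41), Aatf (-0.41) and Tenc1 (-0.40) at the other end. Nupr1 was most like Trappc5 (0.52), Bicd1 (0.45), Farsa (0.42), Pfdn1 (0.41) and Gstm1 (0.41), and least like G630055G22Rik (-0.46), Snrpc (-0.44) and Btbd9 (-0.42). No gene was in more than 1 of these lists. They were loosely fixed: with Pearson's r in place of rho, 0 of the 5 genes of Mt1, 2 of those of Mt2 and 3 of those of Nupr1 stayed among the first 5.

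The levels were also compared in old cells with and without genes that split them otherwise. Mt1 had a mean of 6.21 (SD 2.38) in the 42 cells expressing Selp, the platelet adhesion molecule P-selectin, and 4.87 (SD 2.10) in the 20 without. It was likewise 6.30 (SD 2.39) in the 37 cells expressing Vwf and 4.99 (SD 2.13) in the 25 without. Both gaps were smaller than the SDs, which describe the spread between cells and not the error of a mean. Nupr1 had means of 6.32 (SD 3.27) with Selp and 5.30 (SD 3.55) without, and 6.06 (SD 3.46) with Vwf and 5.89 (SD 3.29) without. For Mt2 the means were 1.58 (SD 2.61) with Selp and 1.76 (SD 2.67) without, and 1.74 (SD 2.63) with Vwf and 1.48 (SD 2.61) without. Mt2 was expressed in 1 of the 13 cells with at least 1 of the cell cycle genes Ccna2, Ccnb1, Cdk1 and Cdc25c (7.69%, 0.195 to 36) and in 17 of the 49 others (34.7%, 21.7 to 49.6), and these intervals overlap. Between cells with and without Selp, Vwf, Aldh1a1, H2-Aa or Egr3, the intervals of the shares overlapped for all 3 genes.

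Neither locus was higher as a whole in the old cells. Within 250 kb of Mt1, 7 other genes had a read, with a median difference of -0.06, and 0 of them were at least 1 higher or lower. The lowest was Nup93, a nuclear pore gene, at -0.99. The next metallothionein, Mt3, had 0 reads in young cells and was expressed in 2 of 62 old cells, and Mt4 was not in the table. Within 250 kb of Nupr1, 25 other genes had a read, with a median of -0.19.

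**Figure D4:**
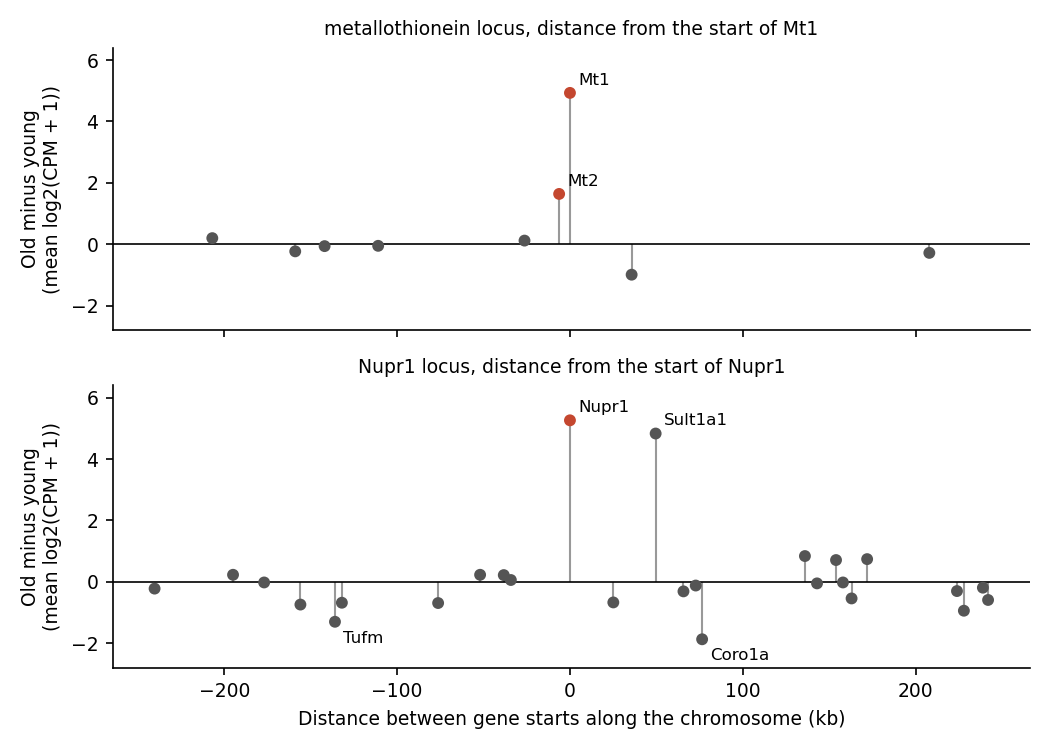
Mean log2(CPM + 1) of old cells minus that of young cells for the genes with a read within 250 kb of Mt1 (top) and Nupr1 (bottom), against the distance between gene starts along the chromosome in kb. Red points are Mt1, Mt2 and Nupr1. Apart from these, Sult1a1 at 4.83 is the 1 gene higher by at least 1, and Coro1a and Tufm near Nupr1 are lower by at least 1.

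The exception near Nupr1 was Sult1a1, which encodes a phenol sulfotransferase and lies 47.4 kb away. Its level was 1.30 in young and 6.12 in old cells (difference 4.83, rank 7), with 11 of 52 and 45 of 62 cells expressing it. Ccdc101, which lies between Nupr1 and Sult1a1, differed by -0.67, and Coro1a (-1.87) and Tufm (-1.30) were also lower in old cells. Nupr1 was expressed in 37 of the 45 old cells with Sult1a1 (82.2%, 67.9 to 92.0) and in 10 of the 17 without (58.8%, 32.9 to 81.6), with rho 0.22 over the 62 cells and overlapping intervals.

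The other genes of metal handling differed little on the median. Of 30 genes listed as zinc, copper and iron carriers, regulators and users, 27 had a read, and 0 were at least 1 higher and 4 at least 1 lower, with a median difference of 0.08 (15 higher and 12 lower by any amount). Over all genes tested, 3.91% were that much higher and 4.49% that much lower. The 4 were the zinc importers Slc39a1 (6.65 in young and 4.99 in old cells) and Slc39a8 (-1.10) and the secretory pathway zinc carriers Slc30a6 (-1.36) and Slc30a5 (-1.19). Mtf1, which encodes the factor that binds the metal response element, had a level of 1.27 in young and 1.23 in old cells, and Slc30a1, a zinc exporter that the same factor controls, 0.39 and 0.23. Sod1, the copper and zinc superoxide dismutase, differed by -0.69.

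Genes of the integrated stress response, in which ATF4 acts upstream of Nupr1, differed in both directions. Of 30 listed genes 29 had a read, 3 were at least 1 higher and 3 at least 1 lower, with a median of 0.10. Over all genes, 3.91% were that much higher and 4.49% that much lower. Atf4 itself was at 4.06 in young and 5.96 in old cells and was expressed in 35 of 52 and 51 of 62. Ppp1r15a, which restarts translation after stress, differed by 1.43 and its relative Ppp1r15b by 1.04. On the other side were the serine synthesis genes Phgdh (-2.23) and Psat1 (-1.20) and the amino acid sensor Eif2ak4 (-1.04). Ddit3, another ATF4 target, was low at both ages, at 0.55 and 1.03.

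**Figure D5:**
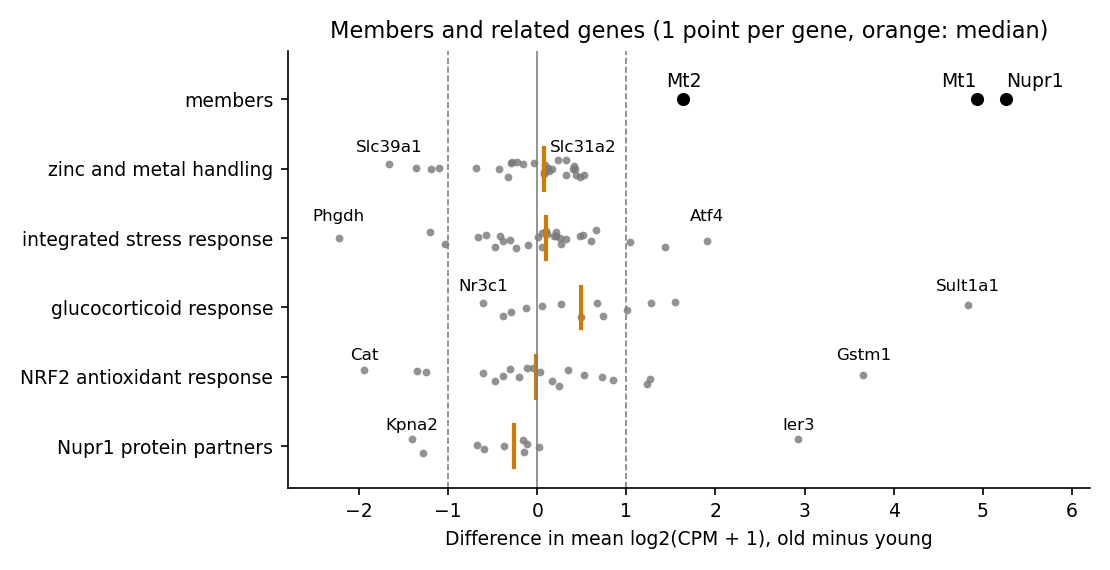
Mean log2(CPM + 1) of old cells minus that of young cells for Mt1, Mt2 and Nupr1 and for the genes with a read in 5 lists of related genes. Each point is a gene, the orange bars are list medians, dashed lines mark differences of -1 and 1, and the highest and lowest gene of each list are named. The medians run from -0.26 to 0.49, while Mt1 and Nupr1 lie at 4.93 and 5.26.

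Of 14 glucocorticoid response genes 13 had a read, with 4 at least 1 higher and 0 at least 1 lower and a median of 0.49. The shares over all genes were 3.91% and 4.49%. The 4 were Sult1a1, the mRNA decay factor Zfp36 (1.55), Tsc22d3, also known as GILZ (4.67 in young and 5.95 in old cells), and the kinase gene Sgk1 (1.01). The receptor gene Nr3c1 was at -0.61. Sult1a1 set the upper end of the list and is also the neighbour of Nupr1 described above.

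Of 20 antioxidant genes under NRF2, all had a read, with 3 at least 1 higher, 3 at least 1 lower and a median of -0.01. Beside them, 3.91% of all genes were that much higher and 4.49% that much lower. Gstm1, a glutathione transferase, was at 4.15 in young and 7.81 in old cells (difference 3.66). It was also among the 5 genes most like Nupr1 across old cells (rho 0.41, Pearson's r 0.30). That list was loosely fixed, and rho at its opposite end was as far from 0 (-0.46 for G630055G22Rik). Keap1, the inhibitor of NRF2, differed by 1.27 and Srxn1 by 1.23, whereas the peroxide-degrading enzymes Cat (-1.94) and Gpx1 (-1.25) and the glutathione synthesis gene Gclc (-1.35) were lower in old cells. Nfe2l2, which encodes NRF2, differed by 0.35.

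Among 10 genes listed as partners or targets of NUPR1, all with a read, 1 was at least 1 higher and 2 at least 1 lower. Over all genes these shares were 3.91% and 4.49%. The median of the list was -0.26. Ier3, an immediate-early gene, was at 1.17 in young and 4.10 in old cells (2.93). Kpna2, an importin, differed by -1.41 and Trp53 by -1.28, from 7.52 to 6.24. The acetyltransferase gene Ep300 (-0.68) and Ptma (-0.60) were also lower, and the list as a whole did not share the direction of Nupr1.

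Metallothioneins and Nupr1 are expressed in many cell types, so markers of other bone marrow cells were read beside them. Summed erythroid and granulocyte markers had a median of 0 CPM per cell at both ages. The 4 of 10 macrophage markers with a read had a median of 105 CPM in young and 91.4 in old cells. Of these Lyz2 was expressed in 43 cells of each age, whereas C1qa was expressed in 0. The 2 of 7 B cell markers with a read had medians of 6.37 and 6.49 CPM, and 5 of 8 stromal and endothelial markers 51.7 and 61.1. Among the stromal and endothelial markers, Lepr was expressed in all 52 young and 62 old cells. By contrast, Pecam1 was expressed in 9 young and 14 old cells, Kdr in 0 and 2, and Cxcl12 and Col1a1 each in 1 and 0. The 7 platelet markers, all with a read, had sums from 0 to 1776 CPM in young cells (median 60.2) and from 0.640 to 4475 in old cells (median 487). As single genes, 4 of them were higher and 3 lower in old cells. Only Selp (0.66 in young and 5.12 in old cells) was higher by at least 1, and 0 were lower by as much. The part of these markers in the levels of Mt1, Mt2 and Nupr1 was not tested beyond the comparison by Selp and Vwf above.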

How the data were processed

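The deposited table holds raw counts of reads per gene and cell, without normalization. Per the paper's methods, the authors mapped 51 bp reads with TopHat2 2.0.10 (per the labels) to mm10 and counted them on RefSeq genes with rpkmforgenes, whose version is not given in the sources used here. Of its 15181 entries 21 join several genes. The study's own quality flag kept 114 of 135 cells, and no 2 cells had identical counts (0 pairs).

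Counts were scaled to CPM by the total of the cell and levels taken as log2(CPM + 1) with Python 3.11.15, numpy 2.4.6, pandas 2.3.3 and scipy 1.17.1. With a single mouse and capture run per age, young and old were compared without a test. Shares carry 95% exact Clopper-Pearson intervals, for counting error over cells only. Summed counts carry 95% exact Poisson intervals, which treat each read as an independent count. Reads carry no molecular identifiers, so copies made in amplification are not told apart. The Poisson intervals are therefore no measure of the precision of the sums. The code was tested on simulated data.

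The genes, gene lists and thresholds were chosen with earlier results of these data known. Genes named are the 3 members, the genes within 250 kb, the 5 most and 3 least alike by rho, and from each list its factors and at most 5 genes with the largest differences among those expressed in at least 10% of cells. Sequences are from RefSeq (3 of 3 genes matched). Alternatives covered other sets of cells, thinning to 250000 reads, pseudocounts, scaling factors of edgeR 4.0.16 and DESeq2 1.42.0 (R 4.3.3) and higher or lower limits for calling a cell expressing. A level was called unchanged when it moved by less than 1.5-fold, a share when it remained inside its 95% interval, and a rho when it moved by less than 0.1.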

Additional observations from a re-analysis of the deposited data

How the results depend on the processing

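No difference of Mt1, Mt2 or Nupr1 changed direction. Under the alternatives to cells, depth and scaling, 18 of 18 level differences, 36 of 36 shares, 30 of 30 list medians and 6 of 6 rho values stayed within the limits given. Values near 0 changed sign within those limits: the median of the zinc and metal list was -0.01 when thinned, that of the NRF2 list 0.01 with all cells, 0.04 with a second quality flag of the study, 0.03 with TMMwsp factors and 0.06 over its genes that 10% or more of cells expressed, and rho between Mt1 and Nupr1 was -0.03 with all cells and Pearson's r -0.02. Of the other settings, 6 of 7 level differences and 3 of 12 shares moved. A pseudocount of 0.1 CPM gave differences of 7.47 for Mt1, 2.70 for Mt2 and 7.66 for Nupr1, by its construction. The log2 ratio of summed counts was 3.06 for Mt1 and 4.66 for Nupr1, and without the cell with most reads in each age 3.89 for Mt1. The share of old cells with Mt1 was 100% with at least 1 read and 77.4% at a CPM of at least 10, and that with Nupr1 was 93.5% with at least 1 read. No paired analysis was possible because the labels give no replicate numbers and each age is 1 mouse, and for the same reason no replicate could be left out. Cells of a single mouse per age limit what these values say about age, and 0 reads of Mt2 in 52 young cells bounds cells with a read, not cells expressing the gene.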
